A study of Mus musculus with 6 samples.

Results

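Calmodulin binds calcium ions and passes their signal on to kinases and other targets, and 3 gene families downstream of it had exons listed as differentially spliced after knockdown of Sfpq. They were Camk2b (the beta chain of calcium/calmodulin-dependent kinase II), Mef2a and Mef2d (MADS-box transcription factors) and Camta2 (a calmodulin-binding transcription activator). The 4 genes were chosen from the deposited lists because they were listed. Their events were selected by position: an event was a member when it lay inside the span of one of these genes and both of its edges were annotated exon or intron edges of that gene. The rule found 7 of 643 distinct events, in 4 of 581 genes with an event. Because being listed chose the members, their presence in the lists is a description and was not tested.

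The samples were P19 cells, a mouse line derived from a teratocarcinoma, whose undifferentiated cells can be driven towards neurons or muscle. The groups were 3 SFPQ knockdown samples, in which small interfering RNA was used against Sfpq (a nuclear RNA-binding protein), and 3 control samples. Splicing differences of knockdown from control cells are held in 3 deposited lists, 1 per replicate number, called list 1, list 2 and list 3 here. An entry gives a chromosome, a start, an end and a type, which for the members was a cassette exon (an exon spliced in or left out whole), an alternative acceptor (a shifted start of an exon) or an alternative donor (a shifted end). The lists carry no inclusion level, direction, read count or error. It is therefore not known from them whether knockdown raised or lowered the use of any exon below, nor how near an event came to the threshold for listing. The depth is unknown for the same reason. The identity of the P19 cells and the loss of Sfpq could not be checked against gene levels, and Sfpq itself had no listed event.

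Camk2 kinases are assembled as rings of subunits. Each subunit has a catalytic domain, a regulatory segment that calmodulin binds, a hub that holds the ring together, and between that segment and the hub a linker whose length and sequence are set by alternative exons. Mef2 factors bind DNA through an N-terminal MADS box and are held in check by class II histone deacetylases until calcium-dependent kinases release them. Camta proteins bind DNA through a CG-1 domain and carry ankyrin repeats and calmodulin-binding IQ motifs.

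Listed exons are shown here because each event is a stretch of sequence that a transcript either has or lacks. Sequences come from the mouse GENCODE M21 transcripts (GRCm38, the assembly of mm10), 5′ to 3′ on the sense strand, and positions are counted from 1. Capitals mark the listed interval. Lower case marks 15 bases on either side of it in the spliced transcript. The shorter exons of Camk2b, on the minus strand of chromosome 11, come first, in transcript order.
Camk2b 33 nt, chr11:5989936-5989968: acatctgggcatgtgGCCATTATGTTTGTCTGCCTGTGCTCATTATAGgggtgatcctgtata
Camk2b 45 nt, chr11:5981070-5981114: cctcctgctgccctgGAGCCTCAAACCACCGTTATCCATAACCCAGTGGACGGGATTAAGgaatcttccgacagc

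The listed exon of Mef2d (plus strand) and the exons at the same place of Mef2a (minus strand) and Mef2c (plus strand), which were in no list, show how far a short exon is kept within a family.
Mef2d 21 nt, chr3:88161781-88161801: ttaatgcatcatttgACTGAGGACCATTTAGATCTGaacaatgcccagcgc
Mef2a 24 nt, not listed, chr7:67244521-67244544: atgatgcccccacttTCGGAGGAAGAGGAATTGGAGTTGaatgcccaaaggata
Mef2c 24 nt, not listed, chr13:83654598-83654621: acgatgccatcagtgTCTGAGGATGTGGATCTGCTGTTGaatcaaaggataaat

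The listed intervals of Camta2 (minus strand) are set beside the unlisted exon of Camta1 (minus strand) that stands at the same place. In the 15 nt event the bases after the capitals belong to the same exon.
Camta2 15 nt, alternative acceptor, chr11:70683351-70683365: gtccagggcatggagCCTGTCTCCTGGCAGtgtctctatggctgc
Camta2 21 nt, chr11:70670891-70670911: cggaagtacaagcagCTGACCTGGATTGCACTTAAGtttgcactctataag
Camta1 21 nt, not listed, chr4:151076577-151076597: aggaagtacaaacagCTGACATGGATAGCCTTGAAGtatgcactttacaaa

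Of the 7 member events, 5 were cassette exons, 1 was an alternative donor and 1 an alternative acceptor. None was a retained intron. List 1 held 3 of them (Camk2b 45 nt, Mef2d 21 nt and Camta2 21 nt). List 2 held 1 (Camk2b 33 nt). List 3 held 4 (Camk2b 129 nt, Mef2a 20 nt and both Camta2 events). The Camta2 exon of 21 nt was the member found in 2 lists. Thus 14.3% of the member events stood in more than 1 list, against 19.6% (126 of 643) of all distinct events, a share near that of the whole series. No member was found in all 3 lists. Over the whole series 22 of 643 distinct events were, so nothing is read from that absence among 7. The 4 genes are 4 of the 2.81% of multi-exon protein-coding genes (579 of 20620) that had an event in any list.

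**Figure D1:**
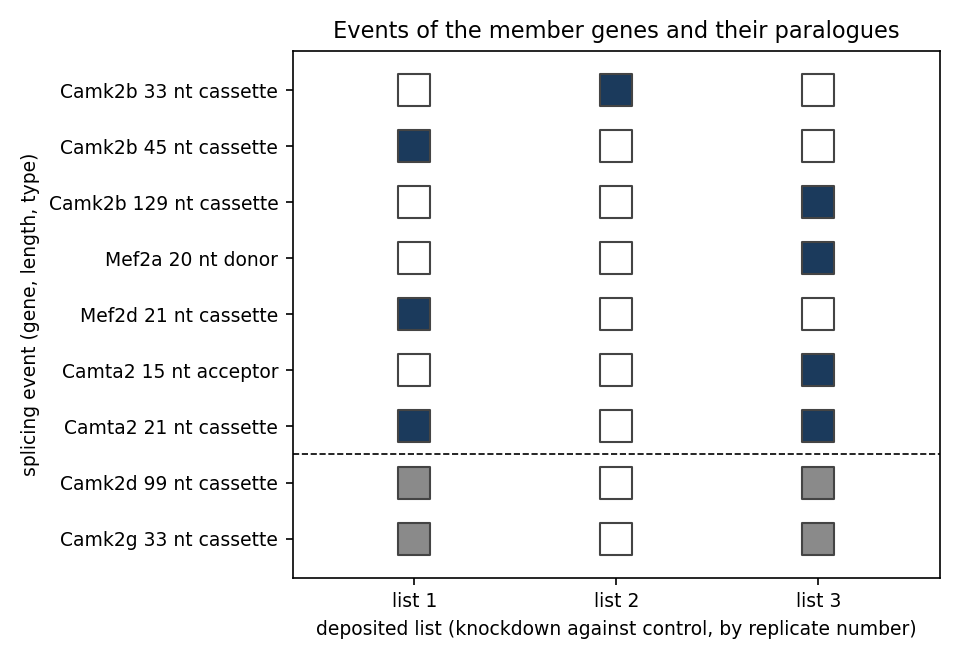
Each row is a splicing event, with its gene, length in nucleotides (nt) and type, and each column is a deposited list of differences between SFPQ knockdown and control P19 cells. Filled squares mark presence, dark for the 7 events of the 4 member genes and grey for the 2 events of their paralogues below the dashed line. Each of the 3 Camk2b exons stands in a different list, and list 2 holds 1 member event.

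Camk2b was listed in all 3 lists, each time through a different exon. In all, 26 genes had events in all 3 lists. A gene can be among them with no event in more than 1 list only if it has 3 or more distinct events. Of the 581 genes with an event, 7 had that many. Camk2b was the 1 gene of the 26 with no event in more than 1 list. The 3 exons lie in separate parts of the gene, at exon 9 of 21 in the transcript Camk2b-208 for the 33 nt exon and at exons 16 and 20 of 24 in Camk2b-202 for the 45 nt and 129 nt exons. A count of lists for this gene is therefore not a count of repeats of any 1 splicing change.

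The 33 nt exon of Camk2b falls in the part of the messenger that codes for the catalytic domain. It was held by 1 of 10 protein-coding transcripts, Camk2b-208, between exons of 84 and 95 nt. It adds 11 residues, in codons 201 to 212 of a protein of 529 residues, with no stop codon and no change to the residues at the junction. Of the 11 residues, 6 are hydrophobic (alanine, valine, leucine, isoleucine, methionine, phenylalanine or tryptophan), and 0 are acidic, lysine or arginine. The introns on either side are short, 194 nt upstream and 267 nt downstream, against medians of 1941 and 2062 nt beside 433 listed cassette exons with an exact match. Upstream introns were shorter for 32 of these 433 exons and downstream introns for 35. The other Camk2b exons lay nearer the middle of that range. The 45 nt exon had introns of 1386 nt upstream and 1348 nt downstream in Camk2b-202, with 174 and 169 of the 433 shorter. Its upstream intron there begins at a variable exon of 72 nt. Camk2b-206 holds the 45 nt exon without that one, so the upstream rank depends on the transcript. The 129 nt exon had 918 and 3876 nt in Camk2b-202, with 132 and 286 shorter, so its downstream intron was longer than the median. Its upstream intron there begins at another variable exon of 129 nt, held by 2 of 10 protein-coding transcripts, so the upstream rank depends on the transcript.

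The 45 nt exon of Camk2b lies in the variable linker. It was held by 6 of 10 protein-coding transcripts and skipped by the other 4, so that both forms are well annotated. It adds 15 residues (378 to 392 of 666 in Camk2b-202), among which 2 are serine or threonine and 1 is basic. The closest exons of the paralogues are a 45 nt exon of Camk2g, which shares 12 of 15 residues and 32 of 45 bases with it, and a 42 nt exon of Camk2d, which shares 13 of 15 aligned residues. Neither was listed. The Camk2g exon is present in 9 annotated transcripts and skipped in 0, whereas the Camk2d exon is present in 5 and skipped in 16.

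The 129 nt exon of Camk2b also codes for linker. It was held by 3 of 10 protein-coding transcripts (Camk2b-202, Camk2b-204 and Camk2b-205). The exon just upstream of it is also 129 nt long, was not listed, and is a near copy, identical at 108 of 129 bases. The sources used here do not say how reads that fit both copies were assigned, so which of the pair carried the listed difference is uncertain. Camk2b-202 and Camk2b-205 hold both copies, and Camk2b-204 holds the listed one alone.

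**Figure D2:**
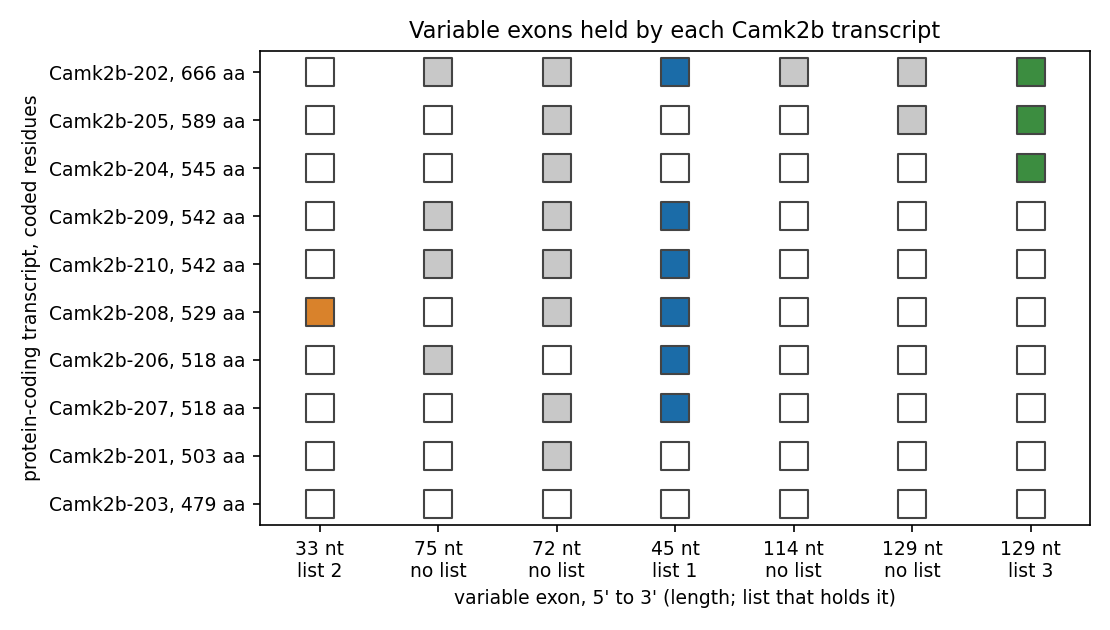
Rows are the 10 protein-coding transcripts of Camk2b with the number of residues they code for, and columns are the 7 exons that some of them hold and others skip, from 5′ to 3′. Filled squares mark an exon that the transcript holds, in blue for list 1, orange for list 2, green for list 3 and grey for exons in no list. Coded proteins run from 479 residues, with no variable exon, to 666 residues, with 6 of the 7.

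The lists held 3 of the 7 exons that vary between protein-coding transcripts of Camk2b. The other 4 (75, 72, 114 and 129 nt) were not listed. All 7 have a length divisible by 3, so each can come and go without a change of reading frame. The 3 listed exons were found together in 0 of 10 transcripts. Of the 10, 2 held none of the 3, 4 held the 45 nt exon alone, 2 the 129 nt exon alone, 1 the 45 and 129 nt exons, and 1 the 33 and 45 nt exons. These are annotated transcripts, and they do not say which forms P19 cells made.

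**Figure D3:**
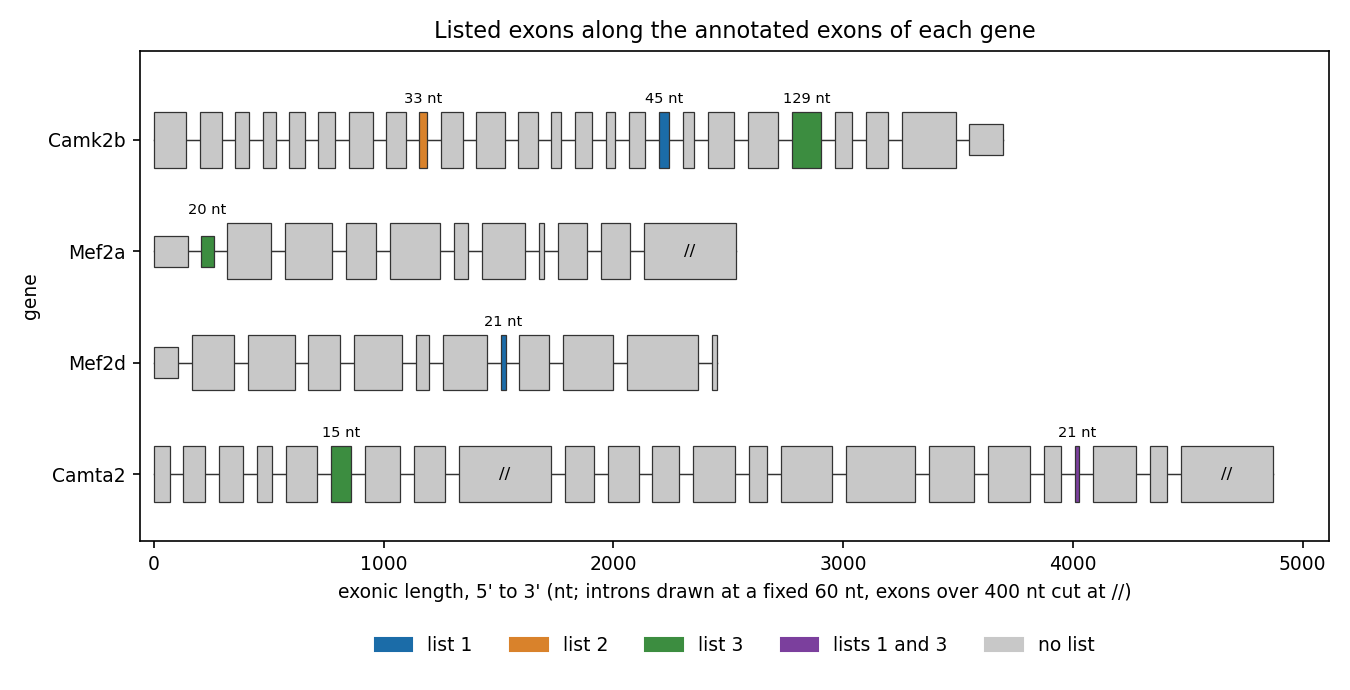
Exons of each gene are drawn from 5′ to 3′ to scale in nt, in the annotated protein-coding transcript with most exons (the 33 nt exon of Camk2b, which this transcript lacks, is added), with introns at a fixed width and the longest exons cut short at the // marks. Tall boxes hold coding sequence in at least 1 transcript, colours give the list, and labels give the length of the event. Where an event shifts 1 end of an exon (Mef2a 20 nt, Camta2 15 nt), the whole exon is coloured.

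Mef2d was listed in list 1 through an exon of 21 nt, held by 1 of its 4 protein-coding transcripts, Mef2d-203, where it is exon 8 of 12 between exons of 191 and 130 nt and introns of 399 nt upstream (61 of 433 shorter) and 1156 nt downstream (145 shorter). It adds 7 residues (286 to 292 of 514), of which 3 are acidic and 0 basic. This is the short acidic exon known as the beta exon of Mef2 factors, an activation segment included mainly in striated muscle and brain. The exons at the same place of Mef2a and Mef2c are 24 nt long and code for 8 residues each, 5 of them acidic in Mef2a and 3 in Mef2c. The Mef2d exon shares 3 of 8 aligned residues with that of Mef2a and 4 of 8 with that of Mef2c. The exon that follows it shares 30 of 44 residues with its Mef2a counterpart and 25 of 47 with that of Mef2c. Neither paralogous exon was listed, although both are skipped in some annotated transcripts (in 5 that span it for Mef2a, and in 8 for Mef2c).

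Another well known choice in Mef2 genes, between alternative alpha exons behind the DNA-binding region, was not listed in either gene. In Mef2d these are exons of 138 and 135 nt, held by 3 and 1 transcripts, and in Mef2a exons of 138 and 132 nt, held by 2 and 5 transcripts. No annotated transcript holds both exons of a pair. In Mef2d the 21 nt exon and the 135 nt exon were also never in the same annotated transcript.

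Mef2a was listed in list 3 through an alternative donor of 20 nt, chr7:67349849-67349868. The shift lengthens exon 2 to 73 nt in 2 annotated protein-coding transcripts, against 53 nt in 3 protein-coding transcripts and 1 transcript marked for nonsense-mediated decay. The exon is in the 5′ untranslated region and ends 137 nt before the start codon in all 6, so the event leaves the annotated coding sequence as it is. It is the 1 member whose length is not divisible by 3. Its neighbouring introns are long, 22791 nt upstream and 32866 nt downstream.

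Camta2 had 2 events. Its cassette exon of 21 nt was in lists 1 and 3. It is exon 20 of 23 in Camta2-201, was held by 3 of 6 protein-coding transcripts, and adds 7 residues (1094 to 1100 of 1208), of which 5 are hydrophobic. A search of the Camta2-201 protein for an IQ-like pattern (isoleucine, leucine or valine, then glutamine, any 3 residues, and lysine or arginine) gave 5 matches. Of these, 4 fell between residues 1061 and 1142, and the exon lies between the match at 1084 to 1089 and the match at 1114 to 1119. A match is a description of letters and not a measured calmodulin site.

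The introns around this exon were among the shortest beside listed cassette exons, 96 nt upstream and 154 nt downstream. Of 433 listed cassette exons compared, 8 had a shorter upstream intron and 17 a shorter downstream one. The exon of Camta1 at the same place is also 21 nt long and codes for the same 7 residues (7 of 7), although 5 of the 21 positions differ in base (16 identical). Exons before and after it share 22 of 24 and 44 of 65 residues between the paralogues. The Camta1 exon was held by 3 and skipped by 3 annotated transcripts that span it, and it was in no list.

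The other Camta2 event, in list 3, was an alternative acceptor of 15 nt at exon 6 of Camta2-201. The exon has 87 nt with the extra bases, in 1 protein-coding transcript, against 72 nt without them, in 3 protein-coding transcripts. It adds 5 residues (114 to 118 of 1208) inside the CG-1 DNA-binding domain, with no stop codon. The frame is kept and the residues at the junction are the same in both forms.

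Taken by length, 6 of 7 member events were divisible by 3, and all 5 cassette exons were (33, 45, 129, 21 and 21 nt). The shares below cover whole exons only, so the 6 of 7, which include an alternative acceptor, have no like share beside them. The cassette exons had a median of 33 nt. Among all 439 listed cassette exons the median was 81.0 nt, and 61.5% had a length divisible by 3. All 5 are wholly coding. Over the other 267 listed cassette exons that are wholly coding, 78.3% were divisible by 3, against 49.2% of annotated cassette exons that are wholly coding (8817 of 17910) and 41.1% of all 165185 annotated internal coding exons. A frame-keeping length was thus common among listed coding exons in general.

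Short exons of at most 27 nt, often called microexons, made up 2 of the 5 member cassette exons (Mef2d and Camta2). They were 13.2% of all listed cassette exons (58 of 439) and 19.1% of the other 267 listed cassette exons that are wholly coding. The share was 4.71% of annotated cassette exons that are wholly coding (844 of 17910) and 1.05% of all annotated internal coding exons (1732 of 165185). The length of 21 nt was shared by 6 listed cassette exons in all, and 29 of the 439 were shorter. The 129 nt exon of Camk2b was longer than 352 of the 439. No test was made on 5 exons.

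**Figure D4:**
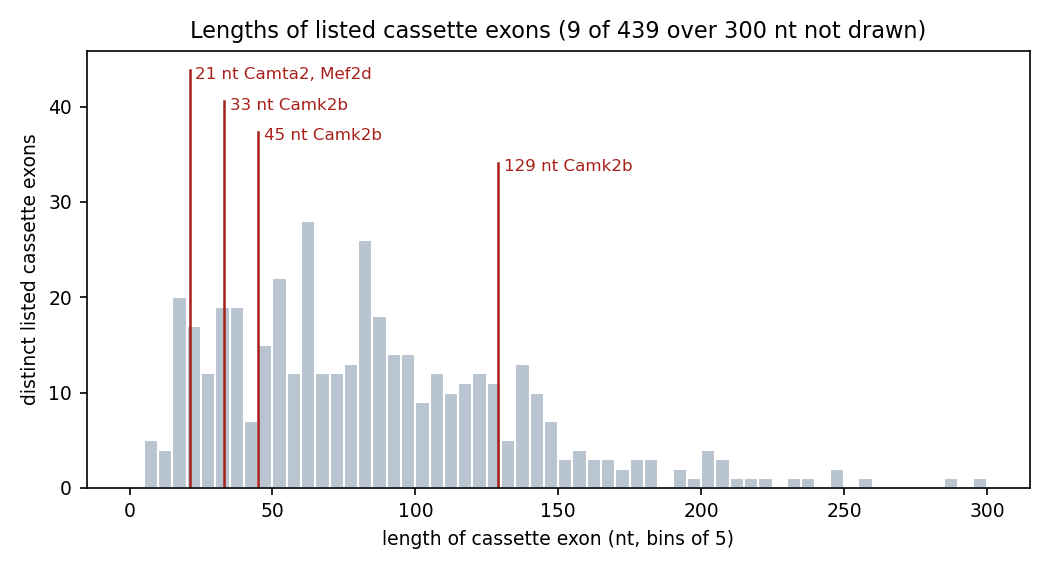
Bars count distinct listed cassette exons by length, in bins of 5 nt with the 9 exons over 300 nt left out, and red lines mark the 5 member exons, of which those of Mef2d and Camta2 have the same length of 21 nt. Of the 5, 4 are shorter than the median of 81.0 nt over all 439 listed cassette exons.

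The 4 genes have 21 annotated cassette exons, of which 5 were listed (23.8%), beside 1.35% of all annotated cassette exons (362 of 26843). The genes were chosen for being listed, so nothing is read from this difference. By gene, 3 of 8 exons were listed in Camk2b, 1 of 4 in Mef2d, 1 of 5 in Camta2 and 0 of 4 in Mef2a. The Camta2 total counts 3 forms of 1 exon (139, 87 and 72 nt). Of the 3 annotated cassette exons of at most 27 nt in these genes, 2 were listed, and the third was the 24 nt exon of Mef2a printed above.

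Of the 6 paralogues, Camk2g and Camk2d had 1 event each, and Camk2a, Mef2b, Mef2c and Camta1 had 0. A 49 nt cassette event of list 2 lay inside the span of Camta1 but matched 0 of its exon edges, overlapped none of its exons and also fell within Per3, so it was not counted for Camta1. Both paralogue events were cassette exons in lists 1 and 3, the same pair of lists as the 21 nt exon of Camta2. Over the whole series each pair of lists shared about as many events with each other and not with the third list (35 for lists 1 and 2, 35 for lists 1 and 3, 34 for lists 2 and 3). The listed exon of Camk2g has 33 nt like the first listed exon of Camk2b but is not its counterpart, with 0 of 11 residues identical. It lies in the linker, was held by 3 protein-coding transcripts and skipped by 5, and is shown because its encoded residues stand out by charge.
Camk2g 33 nt, chr14:20747819-20747851 (minus strand): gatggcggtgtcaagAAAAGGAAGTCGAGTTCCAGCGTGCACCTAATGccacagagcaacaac

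Its first 3 codons, all for lysine or arginine, follow a lysine codon of the exon before, which gives a run of 4 basic residues. A further 4 of its 11 residues are serine or threonine. A run of this kind in the linker of Camk2 kinases is known as a nuclear localisation signal. Camk2d has an exon of 33 nt that shares 9 of 11 residues with it, and that exon was not listed. Instead the listed Camk2d exon, chr3:126779901-126779999, has 99 nt and was held by 0 protein-coding transcripts and by 2 others. In Camk2d-213, a transcript marked for nonsense-mediated decay, the coding sequence ends 12 bases into it, after 142 residues.

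Listed genes were also counted over 3 lists of calcium-related genes, the first pair of which include the members, and over 1 list of splicing regulators. The members were chosen for being listed, so nothing is read from the intervals of that pair. No gene list was tested against all genes. Of the calcium and calmodulin kinases and phosphatase, 4 of 28 genes had an event (14.3%, 95% Wilson interval 5.70 to 31.5%), namely Camk2b, Camk2d, Camk2g and Camkk2. Without Camk2b the count was 3 of 27 (11.1%). Camkk2, a kinase that activates Camk1 and Camk4, had a 43 nt cassette exon in list 2, a length that shifts the frame. Among the calcium-responsive transcription factors and their cofactors, 4 of 35 had an event (11.4%, 4.54 to 26.0%), and 3 of these were the members Mef2a, Mef2d and Camta2. Without members the count was 1 of 32 (3.12%), near the 2.81% of all multi-exon protein-coding genes. That gene was Hdac5, a class II histone deacetylase that represses Mef2 factors, with a 112 nt cassette exon in lists 2 and 3. Like the listed Camk2d exon, it was held by 0 protein-coding transcripts, and the 1 annotated transcript with it is marked for nonsense-mediated decay.

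Of the calcium channels, pumps and stores, 0 of 44 genes had an event. By the rule of 3 counts this allows a share of up to 6.82%, and the upper end of the 95% Wilson interval is 8.03%, so that a share of 2.81% could not be told from 0 with this many genes. Of the known regulators of neuronal and muscle exons, 4 of 23 had an event (17.4%, 6.98 to 37.1%). Celf2 had an 18 nt acceptor shift and Celf4 a 60 nt donor shift, both in list 1. Elavl2 had a 3 nt acceptor shift in list 1 and a 39 nt cassette exon in list 3. Ptbp3 had a 34 nt cassette exon in lists 1 and 2. Celf, Elavl and Ptbp proteins bind RNA and govern alternative exons in neurons and muscle. The intervals cover the counting of genes only. They do not cover the choice of genes for a list, which was made with earlier results of these data known.

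**Figure D5:**
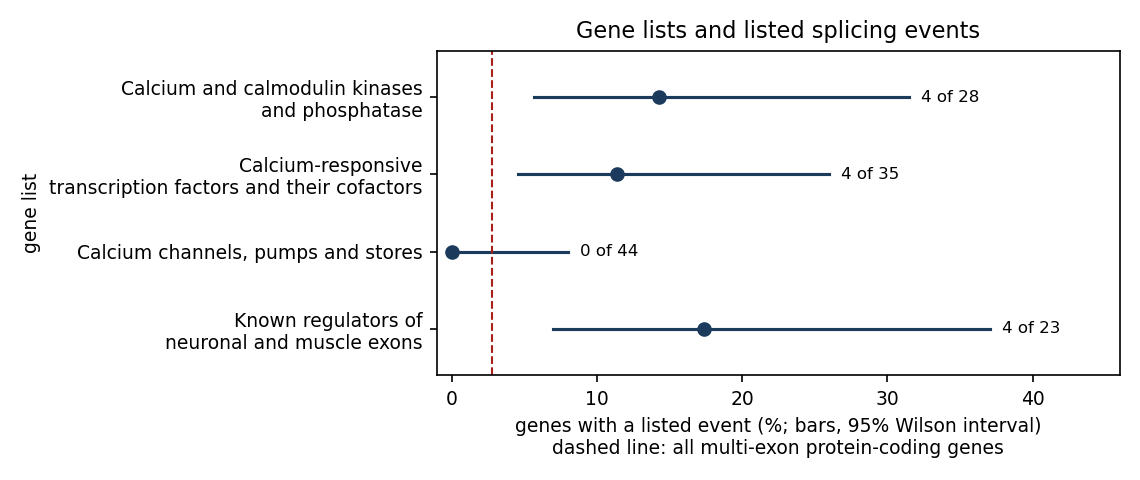
Points give the percent of genes in each list with an event in any of the 3 deposited lists, bars the 95% Wilson interval, and the labels the counts. The dashed line is the 2.81% of all multi-exon protein-coding genes. The upper pair of lists includes the 4 member genes, which were chosen for being listed, and the list of channels, pumps and stores has 0 of 44. The gene lists were written with earlier results of these data known, so the distance of a bar from the line is not a test.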

How the data were processed

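RNA of 3 SFPQ knockdown and 3 control P19 samples had been sequenced as paired ends from strand-specific libraries. Read processing used cutadapt, Bowtie2 and STAR on the build mm10, according to the submitters' processing notes, which give no versions. According to the methods of the study, splicing was compared with SpliceTrap, which models exon inclusion. The labels and the methods name different strand-specific library kits. The authors deposited 3 lists of event positions and types. The threshold for listing and the way samples were matched within a list are not given in the sources used here. Whether replicates came from separate cultures is not stated either, so agreement between lists may be technical.

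The lists had 275, 269 and 262 lines. After repeated lines (5, 4 and 5) and 1 unreadable entry of list 2 were left out, 270, 264 and 257 events remained. No column of per-sample values was left unused (0). The value 1 was added to starts. Events of the members and paralogues were matched to GENCODE M21 by both edges. For the 581 genes with an event and the 2.81% of all genes the rule was looser. There an event went to the overlapping gene with the best edge match, with no least number of matching edges. This looser rule was run on exons drawn from the same annotation, which checks the code and not the match of the listed events. An annotated cassette exon was one that is internal in a transcript and falls within an intron of another transcript of its gene. Residues were counted by translating transcripts, and each listed exon was aligned globally with paralogous exons of 0.8 to 1.25 times its length, the most alike of which was taken. Shares of genes with an event, counted over each whole gene list, carry 95% Wilson intervals, and other shares carry none. A share of 0 was given the limit that 3 counts allow.

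The members, paralogues, gene lists and comparisons were chosen with earlier results of these data known. Named genes were the 4 members, 6 paralogues, Sfpq and each gene of the gene lists with an event. In the list of transcription factors 35 of 37 symbols were found. Alternatives tried were leaving out each list, other rules for matching and other transcripts. Intron sequence was not used here, and the sequences of some listed intervals are not reported here. Python 3.11.15, scipy 1.17.1, Biopython 1.88 and matplotlib 3.10.9 were used.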

Additional observations from a re-analysis of the deposited data

How the results depend on the processing

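The count of 7 member events ranged from 4 to 6 when a list was left out (5 without list 1, 6 without list 2, 4 without list 3). Without list 1 Mef2d had 0 events, and without list 3 Mef2a had 0. Counting any overlap with an exon, or edges of protein-coding transcripts alone, left 7. The share in more than 1 list stayed at 14.3% when 1 shared edge was enough. The share with a length divisible by 3 was 85.7% over all members and 100% over fully coding cassette exons. For the 85.7% no like share over listed events of all types is given here. The listed share of annotated cassette exons was 23.8%, or 29.4% within protein-coding transcripts. Over the 130 genes of the 4 gene lists, 9.23% had an event. Without the 4 members the share was 6.35% (8 of 126), beside 2.81% of all multi-exon protein-coding genes. With the members it was 6.92 to 8.46% when a list was left out and 5.38% for genes in more than 1 list. The last share includes the members Camk2b and Camta2, and no like share over all genes is given here. Camk2b and Elavl2 reached more than 1 list through different events alone. The pyrimidine share and motif matches of flanking introns were not run. No paired analysis was possible because the lists hold no value per sample. The unknown depth and listing threshold limit what absence from a list says.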
